A study of Mus musculus with 4 samples.

Results

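The complement genes of myeloid cells were described in RNA sequencing of tumor-associated macrophages (TAMs) from NB9464 neuroblastoma tumors. The 9 genes were chosen by symbol, by a rule that sets no threshold on their values although earlier results of these data were known, as the C1q chains (*C1qa*, *C1qb*, *C1qc*), the proteases of the C1 complex (*C1ra*, *C1s1*), *C3*, factor B (*Cfb*) and the anaphylatoxin receptors (*C3ar1*, *C5ar1*). All 9 were found among the 54532 Ensembl genes of the count table, and all 9 passed the filter on low counts, with at least 209 counts in every library.

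Complement is a cascade of plasma proteins that marks cells and debris for uptake. In the classical pathway, C1q binds antibody or cell surfaces and carries the proteases C1r and C1s. C1r activates C1s, which cleaves C4 and C2 so that C3 can be split. Factor B amplifies this step through the alternative pathway. The small fragments released from C3 and C5 act on *C3ar1* and *C5ar1*, receptors that attract and activate myeloid cells. Unlike most complement proteins, which the liver supplies, C1q is made mainly by macrophages and related cells, and C1r and C1s are also made by fibroblasts.

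Mice a few weeks old of the C57BL/6 background were implanted with NB9464, a neuroblastoma line derived from *MYCN*-transgenic mice, and tumors were collected on day 40. The labels give no treatment. In Syk MC-KO mice a floxed *Syk* allele is deleted by Cre expressed from the lysozyme M locus (*Lyz2*), active in myeloid cells including neutrophils, and Syk MC-WT mice were their wild type controls. CD11b and F4/80 magnetic beads were used to isolate the TAMs. Their polyA RNA gave 4 libraries, with M7 and M8 carrying the label Syk MC-WT and M9 and M10 the label Syk MC-KO. The labels speak of TAMs for the isolation but of bone marrow-derived macrophages for the RNA extraction, and the description of each library mentions adoptive transfer, so the source of the RNA is uncertain. They do not say whether a library is 1 animal or a pool, so p-values measure only the spread between these libraries, which may be technical. With 2 against 2, the smallest exact two-sided permutation p is 0.333 for a single value.

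Total counts ran from 20755886 to 23518045, and 3 counts, taken as the smallest detectable signal, were 0.109 to 0.163 CPM (TMM-normalized counts per 1000000 counts). *Syk*, the deleted gene, was higher in the Syk MC-KO libraries (log2 fold change 2.80, standard error 0.194, edgeR adjusted p = 0.000674), opposite to the label, and group names follow the labels. *Lyz2*, the locus that carries Cre, was 296 and 208 CPM in M7 and M8 and 8.64 and 20.2 CPM in M9 and M10. Its log2 fold change was -4.13 (edgeR adjusted p = 0.00156) with all 4 libraries. With 1 library left out, it ran from -3.72 without M9 to -4.86 without M10. Mitochondrial genes took 2.20% to 2.34% of the counts in the Syk MC-WT libraries and 6.00% to 15.9% in the Syk MC-KO libraries. With these and rRNA-like genes removed, the same numbers of the 9 genes passed the test, 6 higher and 2 lower. Each of the 10 macrophage markers was higher in M9 and M10 by the test (log2 fold changes 0.57 to 3.57). Their summed level was 447 to 668 CPM in Syk MC-WT and 3250 to 4827 CPM in Syk MC-KO. With libraries scaled to these markers, the log2 fold change of *Syk* was 0.033 (edgeR adjusted p = 0.949). Scaled to 6 pan-leukocyte genes it was -0.83 (edgeR adjusted p = 0.0303). Of 8 fibroblast markers, 5 were lower, and the sum of the 8 was 12612 to 14509 CPM against 4115 to 5031 CPM. *Col1a1* and *Col3a1* made up most of that sum, at 5662 and 6158 CPM in M7. *Dcn*, *Fbln1* and *Lum* were not called (log2 fold changes -0.28, -0.026 and -0.63, edgeR adjusted p = 0.503, 0.918 and 0.115). Fibroblast transcripts were thus counted in every library of these bead-isolated cells, and in bulk libraries fewer cells of a type and less RNA per cell cannot be told apart. Of the neuroblast markers, *Th* and *Dbh* had 0 counts in all 4 libraries, whereas *Hand2* was abundant at 262, 301, 178 and 286 CPM in M7 to M10 (log2 fold change -0.28, edgeR adjusted p = 0.418). *Mycn*, the other marker that could be tested, was higher in Syk MC-KO (log2 fold change 0.74, edgeR adjusted p = 0.0415).

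The promoters of 3 genes are shown because each stands for a group of genes with called differences. *C1qb* stands for the C1q chains and *C3ar1* for the anaphylatoxin receptors, both higher in Syk MC-KO, and *C1s1* for the C1 proteases, lower in Syk MC-KO. Each sequence is the 250 bases before a RefSeq start on GRCm38.p6, written 5′ to 3′ along the gene's strand, which is minus for all 3. Capitals mark motif letters. The windows lie at chr4:136886201-136886450 for *C1qb*, chr6:122856158-122856407 for *C3ar1* and chr6:124542360-124542609 for *C1s1*.

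C1qb: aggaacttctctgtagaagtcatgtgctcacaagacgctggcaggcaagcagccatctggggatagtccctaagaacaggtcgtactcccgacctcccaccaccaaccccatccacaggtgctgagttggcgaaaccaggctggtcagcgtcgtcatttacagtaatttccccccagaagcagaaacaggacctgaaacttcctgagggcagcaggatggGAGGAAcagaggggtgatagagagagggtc

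C3ar1: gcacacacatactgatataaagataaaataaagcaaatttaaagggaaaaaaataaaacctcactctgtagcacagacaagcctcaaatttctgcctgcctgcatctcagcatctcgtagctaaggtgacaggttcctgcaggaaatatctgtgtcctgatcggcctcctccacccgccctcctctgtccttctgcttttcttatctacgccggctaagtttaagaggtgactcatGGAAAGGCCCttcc

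C1s1: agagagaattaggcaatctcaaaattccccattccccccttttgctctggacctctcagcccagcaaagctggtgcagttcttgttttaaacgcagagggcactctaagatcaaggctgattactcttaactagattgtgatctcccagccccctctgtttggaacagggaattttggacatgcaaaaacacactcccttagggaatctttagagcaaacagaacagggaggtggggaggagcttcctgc

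In *C1qb* the capitals are GAGGAA, the core bound by PU.1, a myeloid transcription factor, 30 bases before the start. In *C3ar1* they match a kappa B motif, GGG and TTTCC with 2 bases of any kind between, read on the opposite strand. The same PU.1 core stood on the opposite strand 193 bases before the start of *C1qc* and after the start of *C1ra*, which also held the GAS motif TTCNNNGAA there. RefSeq windows of 300 bases (250 before and 50 after the start) were found for 7 of the 9 genes, 8 windows in all. *C1s1* had a second start, whose window at chr6:124542272-124542571 is not shown. *C1qb*, *C1qc* and *C1ra* held the PU.1 core, which stood in 28.3% of all 32851 windows, and the kappa B motif of *C3ar1* stood in 1.63%. The GAS motif stood in 8.30% of windows and the ISRE motif, GAAA repeated after 2 bases of any kind and found in none of these 7 genes, in 3.44%. *C1s1*, *C3* and *C5ar1* held none of the 4 motifs, which were searched on both strands.

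The C1q chains were the most abundant of the 9 genes per length and were higher in the Syk MC-KO libraries. *C1qa* (ENSMUSG00000036887, chromosome 4, 136895917 to 136898803), *C1qc* (ENSMUSG00000036896, 136889804 to 136893065) and *C1qb* (ENSMUSG00000036905, 136880129 to 136886187) lie next to each other on the minus strand of chromosome 4 (GRCm38). Their products, the A, C and B chains, assemble together into the C1q molecule. *C1qa* was 202 CPM (M7) and 148 CPM (M8) against 2016 CPM (M9) and 1216 CPM (M10). M9 and M10 were both far above M7 and M8, and M9 was higher than M10. Syk MC-WT averaged 175 ± 38.3 CPM (SD, n = 2) against 1616 ± 566 CPM (SD, n = 2) for Syk MC-KO, a 9.23-fold difference (log2 fold change 3.21, standard error 0.334, edgeR adjusted p = 0.00154).

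*C1qb* followed the same order, with 201, 138, 1846 and 1168 CPM in M7 to M10 and a log2 fold change of 3.16 (standard error 0.331, edgeR adjusted p = 0.00156). *C1qc* had 226, 158, 1595 and 1005 CPM and a log2 fold change of 2.76 (standard error 0.321, edgeR adjusted p = 0.00203). The groups did not overlap for any chain, M7 was above M8, and M9 was above M10. Counts divided by exon length and scaled to the same sum in each library (a TPM-like level) put *C1qa* at rank 176 and 225 among all genes in M7 and M8, and at rank 24 and 48 in M9 and M10. On that scale *C1qa* stood at 777, 548, 4263 and 1935, *C1qb* at 738, 487, 3732 and 1777, and *C1qc* at 468, 314, 1817 and 862. *C1qc* was the lowest chain per length, with annotated exons of 1931 bases against 1040 for *C1qa* and 1088 for *C1qb*.

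**Figure D1:**
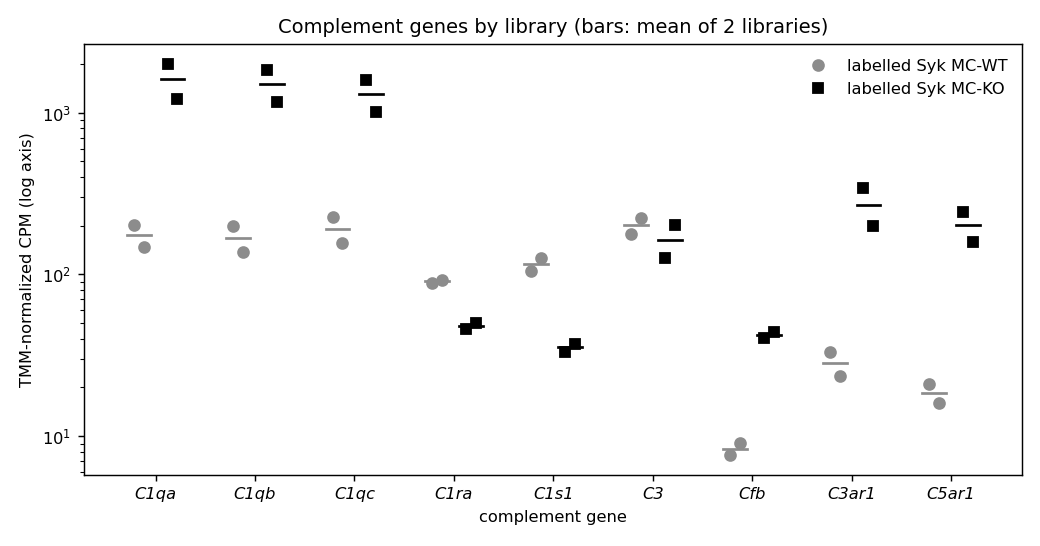
TMM-normalized CPM of the 9 complement genes on a log axis, with gray circles for the Syk MC-WT libraries, black squares for the Syk MC-KO libraries and bars for the mean of 2 libraries. The groups are apart for every gene but *C3*, with *C1ra* and *C1s1* lower and the other 6 higher in Syk MC-KO on this scale, though not after scaling to leukocyte or, for *C1ra*, fibroblast genes.

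The balance between the chains was compared within each library, a ratio that no scaling between libraries can move. The exon lengths set the level of each ratio but not how it compared between libraries. Per exon length, *C1qa* was 1.66 and 1.74 times *C1qc* in M7 and M8 and 2.35 and 2.25 times *C1qc* in M9 and M10. *C1qb* was 1.58 and 1.55 times *C1qc* in M7 and M8, and 2.05 and 2.06 times in M9 and M10. Both ratios were thus higher in M9 and M10, so *C1qc* differed less between genotypes than its neighbours. *C1qa* and *C1qb* kept closer to each other, at ratios of 1.05, 1.12, 1.14 and 1.09 in M7 to M10, where the groups overlapped.

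The anaphylatoxin receptors were also higher in the Syk MC-KO libraries, by about as much as *C1qa*. *C5ar1* (ENSMUSG00000049130, chromosome 7, 16246743 to 16259540), the receptor for C5a, was 21.1 CPM (M7) and 16.1 CPM (M8) against 245 CPM (M9) and 158 CPM (M10). Syk MC-WT averaged 18.6 ± 3.53 CPM (SD, n = 2) against 201 ± 61.6 CPM (SD, n = 2) for Syk MC-KO, 10.8-fold higher (log2 fold change 3.43, standard error 0.279, edgeR adjusted p = 0.000861). *C3ar1* (ENSMUSG00000040552, chromosome 6, 122847138 to 122856161), the receptor for C3a, was 33.3, 23.7, 342 and 199 CPM in M7 to M10. It was 9.49-fold higher in Syk MC-KO (log2 fold change 3.25, standard error 0.325, edgeR adjusted p = 0.00138). Per exon length the receptors were close to each other, with *C3ar1* at 0.942, 0.877, 0.835 and 0.753 times *C5ar1* in M7 to M10. The distance between centred log2 CPM over the 4 libraries was 0.059, 0.12 and 0.47 from *C3ar1* to *C1qa*, *C1qb* and *C1qc*, and 0.24, 0.29 and 0.67 from *C5ar1* to the same chains. Among the chains it was 0.090 between *C1qa* and *C1qb*, 0.44 between *C1qa* and *C1qc* and 0.40 between *C1qb* and *C1qc*.

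*C3* and *Cfb*, which together form the C3 convertase of the alternative pathway, differed from each other. *Cfb* (ENSMUSG00000090231, chromosome 17, 34856374 to 34862518) was 7.62 CPM (M7) and 9.07 CPM (M8) against 40.7 CPM (M9) and 44.2 CPM (M10). It was 5.09-fold higher in the Syk MC-KO libraries (log2 fold change 2.35, standard error 0.190, edgeR adjusted p = 0.000859), and the libraries of each group lay close together. *Gm20547*, an annotated gene that overlaps *Cfb* and *C2*, had 30 counts in M7 and 0 in the other libraries, so that few counts were assigned to it. *C3* (ENSMUSG00000024164, chromosome 17, 57203970 to 57228136), the central protein of the cascade, was 178 CPM (M7) and 225 CPM (M8) against 127 CPM (M9) and 201 CPM (M10). M10 lay between the Syk MC-WT libraries, and the log2 fold change of -0.30 did not pass the test (95% interval -0.91 to 0.32, edgeR adjusted p = 0.392). The log2 fold change was -0.66 without M10, -0.45 without M7, -0.12 without M8 and -0.084 without M9. Its size thus depended on which library was left out. Per exon length *C3* was 12.8 and 13.6 times *Cfb* in M7 and M8 and 1.72 and 2.50 times *Cfb* in M9 and M10, so the ratio was lower in M9 and M10.

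The C1 proteases were lower in the Syk MC-KO libraries. *C1s1* (ENSMUSG00000038521, chromosome 6, 124530345 to 124542359), the protease that cleaves C4 and C2, was 105 CPM (M7) and 127 CPM (M8) against 33.4 CPM (M9) and 37.4 CPM (M10). It was 3.27-fold lower in Syk MC-KO (log2 fold change -1.71, standard error 0.174, edgeR adjusted p = 0.00143). *C1ra* (ENSMUSG00000055172, chromosome 6, 124512405 to 124523443), which activates C1s, was 88.2, 92.9, 45.9 and 49.9 CPM in M7 to M10, 1.89-fold lower in Syk MC-KO (log2 fold change -0.92, standard error 0.150, edgeR adjusted p = 0.00554). Replicates of both genes were close and the groups did not overlap. Without M8 the log2 fold change of *C1ra* was -0.88 and did not pass (edgeR adjusted p = 0.0632).

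The difference was unequal between these neighbours. Per exon length, *C1ra* was 0.885 and 0.770 times *C1s1* in M7 and M8 and 1.44 and 1.40 times *C1s1* in M9 and M10, so *C1s1* was the higher of the pair in Syk MC-WT and the lower in Syk MC-KO. Their near-identical paralogs took few counts, with 0, 2, 6 and 5 for *C1rb* and 2, 4, 0 and 0 for *C1s2* in M7 to M10. Adding each paralog to its partner left log2 fold changes of -0.91 for *C1ra* and -1.71 for *C1s1*. *Gm16567*, an antisense gene annotated within *C1s1*, had 0, 0, 18 and 21 counts, and without strand-specific reads, which the sources used here do not state, the pair cannot be told apart.

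With TMM scaling, 6 of the 9 genes were higher and 2 lower in the Syk MC-KO libraries with an adjusted p under 0.05 by edgeR's quasi-likelihood test over 16451 genes, where 39.4% of all genes passed, 22.7% higher and 16.7% lower. M9 and M10 were both above M7 and M8 for 6 genes and below for 2, against 38.0% and 37.2% of all genes tested. The median log2 fold change was 2.76 for the 9 genes and 0.016 for all genes tested. Per exon length, the mean of the C1q chains was 5.25 and 3.26 times the mean of *C1ra* and *C1s1* in M7 and M8, and 114 and 64.3 times that mean in M9 and M10.

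Since macrophage and fibroblast markers moved with genotype, the genes were also read relative to those markers. Counts of the C1q chains per count of the 10 macrophage markers came to 0.942, 0.990, 1.13 and 1.04, respectively, for M7 to M10. This ratio was higher in M9 and M10, but by far less than the chains themselves. With macrophage markers as the scale, log2 fold changes came to 0.41 for *C1qa* (edgeR adjusted p = 0.444), 0.38 for *C1qb* (adjusted p = 0.484) and -0.019 for *C1qc* (adjusted p = 0.973). They were 0.64 for *C5ar1* (adjusted p = 0.206), 0.45 for *C3ar1* (adjusted p = 0.380) and -0.43 for *Cfb* (adjusted p = 0.434), so that none of the 6 passed the test on this scale. *C3* had a log2 fold change of -3.04 on the same scale (edgeR adjusted p = 1.57e-07), *C1ra* -3.69 and *C1s1* -4.49. The median of all 16451 genes tested was -2.75 on this scale, and 14321 of them were lower. All 6 pan-leukocyte genes were higher by TMM as well, with sums of 259 to 349 CPM in Syk MC-WT and 3025 to 4221 CPM in Syk MC-KO. Scaled to them, each of the 6 genes that were higher by TMM had a log2 fold change below 0, from -0.22 for *C5ar1* to -1.28 for *Cfb*. Neutrophils and dendritic cells, which can also be caught by CD11b beads, had markers that mostly moved the same way. All 6 neutrophil markers were higher, with sums of 29.5 to 42.7 CPM in Syk MC-WT and 232 to 464 CPM in Syk MC-KO. Of 6 dendritic cell markers 4 were higher, with sums of 12.2 to 13.9 CPM and 60.8 to 67.4 CPM over all 6. *Zbtb46* and *Clec9a* were not called (log2 fold changes -0.19 and 2.26, edgeR adjusted p = 0.607 and 0.0582). Of 5 lymphocyte markers tested, 3 were higher, with sums of 1.18 to 1.71 CPM and 6.70 to 8.83 CPM. Their part in the levels of *C5ar1* and *C3ar1*, which neutrophils also express, was not tested.

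Relative to fibroblast markers the proteases and *C3* stood differently. Counts of *C1ra* and *C1s1* together per 1000 counts of the 8 fibroblast markers came to 15.3, 15.1, 19.3 and 17.3 for M7 to M10. With libraries scaled to the fibroblast markers the log2 fold change was 0.16 for *C1ra* (edgeR adjusted p = 0.614), -0.63 for *C1s1* (adjusted p = 0.0669) and 0.75 for *C3* (adjusted p = 0.0537). The direction of the protease ratio depended on the collagens: per count of the 5 fibroblast markers other than *Col1a1*, *Col1a2* and *Col3a1*, the ratio was 0.354, 0.378, 0.321 and 0.248 in M7 to M10, lower in M9 and M10. *C3* per 1000 fibroblast marker counts was 14.1, 15.5, 30.9 and 40.0, and it was higher in M9 and M10 with or without the collagens. Of 6 endothelial markers, 2 were lower, with sums of 173 to 176 CPM in Syk MC-WT and 128 to 139 CPM in Syk MC-KO. The part of fibroblasts and endothelial cells in the levels of *C1ra*, *C1s1* and *C3* was not tested.

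**Figure D2:**
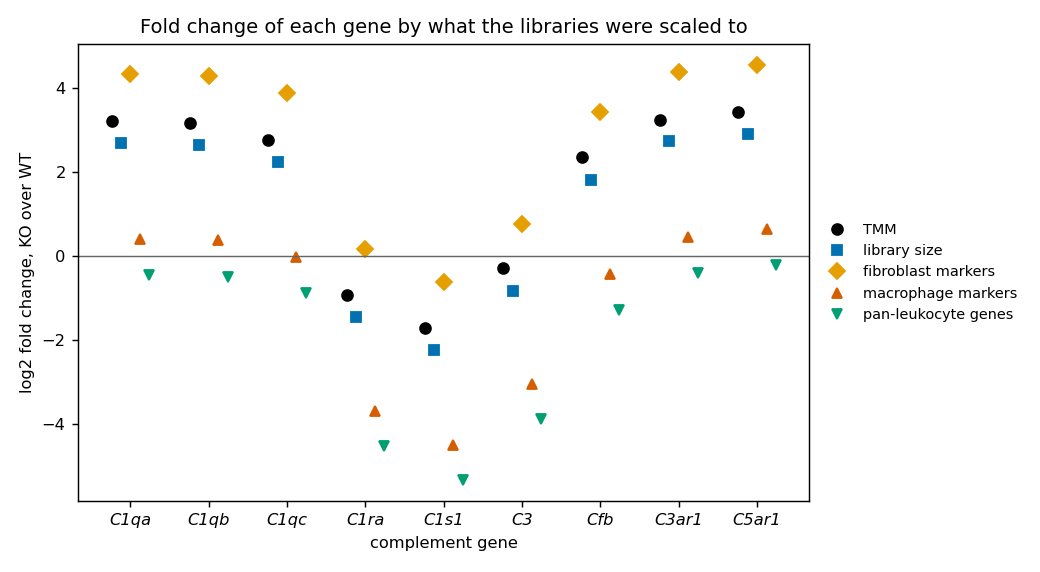
Log2 fold change of each gene between genotypes, with the libraries normalized by TMM (black circles), by library size (blue squares), or scaled to fibroblast markers (orange diamonds), macrophage markers (vermilion triangles) or pan-leukocyte genes (green inverted triangles). Each scaling moves all genes together, so *C1ra*, *C1s1* and *C3* stay below the other 6 genes under every scaling drawn, while the zero line falls differently.

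The other complement genes were read from a list of 41 genes, of which 28 passed the filter on low counts and 13 were too low to test. In the Syk MC-KO libraries 11 of the 28 were higher and 5 were lower, against 22.7% and 16.7% of all genes tested, and the median over the 28 was 0.52 on the log2 scale. These directions are on the TMM scale: scaled to the macrophage markers, 2 of the 28 were higher and 20 lower. With that scaling, 140 of all 16451 genes tested were higher and 14321 lower. The receptors showed one direction: 6 of 7 tested were higher and the seventh, *Calr*, was not called by edgeR at a log2 fold change of 0.64 (adjusted p = 0.0769). It was called by the DESeq2 Wald test (0.60, adjusted p = 0.0280) and by edgeR with fibroblast scaling (1.74, adjusted p = 0.00721). By library size alone its log2 fold change was 0.11 and did not pass (edgeR adjusted p = 0.769). With TMM the log2 fold change was 0.80 without M7, 0.49 without M8, 0.39 without M9 and 0.80 without M10. *Itgam* and *Itgb2* encode the chains of complement receptor 3, which binds cleaved C3 on particles, and differed by 3.44 and 3.82 on the log2 scale (adjusted p = 0.00161 and 0.000495, respectively). CD11b, the product of *Itgam*, is also the bead target. *Itgax*, whose product pairs with that of *Itgb2* in complement receptor 4, was 6.93, 4.68, 164 and 171 CPM in M7 to M10. Its log2 fold change was 4.84 (standard error 0.241, edgeR adjusted p = 0.000486). *Itgax* was also higher with macrophage scaling (2.14, adjusted p = 6.42e-05) and with pan-leukocyte scaling (1.26, adjusted p = 0.00336). *Itgb2* was higher with macrophage scaling (1.03, adjusted p = 0.0473) but did not pass with pan-leukocyte scaling (0.17, adjusted p = 0.651). *C5ar2*, a second C5a receptor beside *C5ar1* on chromosome 7 (16234585 to 16244154), was 1.39, 1.02, 14.6 and 5.88 CPM (log2 fold change 3.09, edgeR adjusted p = 0.00696). *Cd93*, a receptor once taken for a C1q receptor, and *C1qbp*, which binds the globular heads of C1q, differed by 1.75 and 1.06 on the log2 scale (adjusted p = 0.0109 and 0.00564, respectively), though *C1qbp* did not pass without M8 (0.93, adjusted p = 0.0740). Without M9, the log2 fold change was 2.20 for *C5ar2*, 2.77 for *Itgam* and 1.05 for *Cd93*.

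Among the initiators and proteases, 3 of 8 tested were higher and 3 lower, against 22.7% and 16.7% of all genes tested. *Cfp*, properdin, which stabilizes the alternative convertase and is made by myeloid cells, was 57.4, 45.4, 564 and 374 CPM in M7 to M10 (log2 fold change 3.19, standard error 0.269, edgeR adjusted p = 0.000898). *C4b*, a C4 gene, was 66.2, 56.2, 190 and 132 CPM (log2 fold change 1.39, adjusted p = 0.00512), and its near-identical copy *C4a* had 28, 61, 0 and 20 counts. *Fcna*, a ficolin made by macrophages, was 31.2, 21.5, 145 and 56.5 CPM (log2 fold change 1.93, adjusted p = 0.0167). *C2* lies next to *Cfb* on chromosome 17 (34862604 to 34898265) but had the opposite direction, with 6.02, 14.8, 2.91 and 2.29 CPM (log2 fold change -1.99, standard error 0.495, edgeR adjusted p = 0.0218). *Masp1*, a protease of the lectin pathway, was 109, 203, 48.4 and 66.4 CPM (log2 fold change -1.44, adjusted p = 0.0153). *Colec12*, a scavenger receptor with a collagen-like stalk, had a log2 fold change of -0.82 (adjusted p = 0.0107). *Cfd*, the protease that cleaves factor B and a product of adipocytes, was 5.76, 1.46, 0.243 and 0.926 CPM. Its log2 fold change of -2.63 did not pass the edgeR test (adjusted p = 0.0611), though it passed by the DESeq2 Wald test (adjusted p = 0.0104). It was -2.04 without M9, -3.86 without M10 and -1.32 without M7. Without M9, the log2 fold change of *Fcna* was 1.02. Without M8, *C2* (-1.21, adjusted p = 0.280), *Masp1* (-0.93, adjusted p = 0.0703), *Fcna* (1.69, adjusted p = 0.0545) and *Colec12* (-0.91, adjusted p = 0.0607) did not pass, and *Colec12* did not pass without M7 either (-0.72, adjusted p = 0.107).

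Of the regulators that protect host cells, 2 of 9 tested were higher and 2 lower, against 22.7% and 16.7% of all genes. *Serping1*, the C1 inhibitor that blocks C1r and C1s, was 91.1, 145, 25.3 and 47.6 CPM in M7 to M10 (log2 fold change -1.70, standard error 0.353, edgeR adjusted p = 0.0122), lower like its target proteases. *Clu*, which blocks the terminal complex, had a log2 fold change of -1.02 (adjusted p = 0.0277). *Cr1l* and *Cd55*, membrane proteins that limit C3 convertases, differed by 1.11 and 1.53 on the log2 scale (adjusted p = 0.00954 and 0.0402, respectively). *Cd59a*, which blocks pore assembly, narrowly missed the threshold at a log2 fold change of -1.08 (adjusted p = 0.0556). It passed by the DESeq2 Wald test (adjusted p = 0.0093), with DESeq2 size factors (adjusted p = 0.0441), by library size alone (adjusted p = 0.0111), with either other filter (adjusted p = 0.000408 and 0.0377) and without mitochondrial and rRNA-like genes (adjusted p = 0.0445). Without M8, *Cr1l*, *Clu* and *Cd55* did not pass (adjusted p = 0.0749, 0.0773 and 0.324), and *Clu* and *Cd55* did not pass without M7 either. With fibroblast scaling the log2 fold change of *Cd59a* was -0.063 and did not pass (edgeR adjusted p = 0.882). On the TMM scale it was -1.11 without M7, -1.05 without M8, -0.71 without M9 and -1.73 without M10. None of the 4 terminal components tested passed, and *C8b* had 0 counts in every library.

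**Figure D3:**
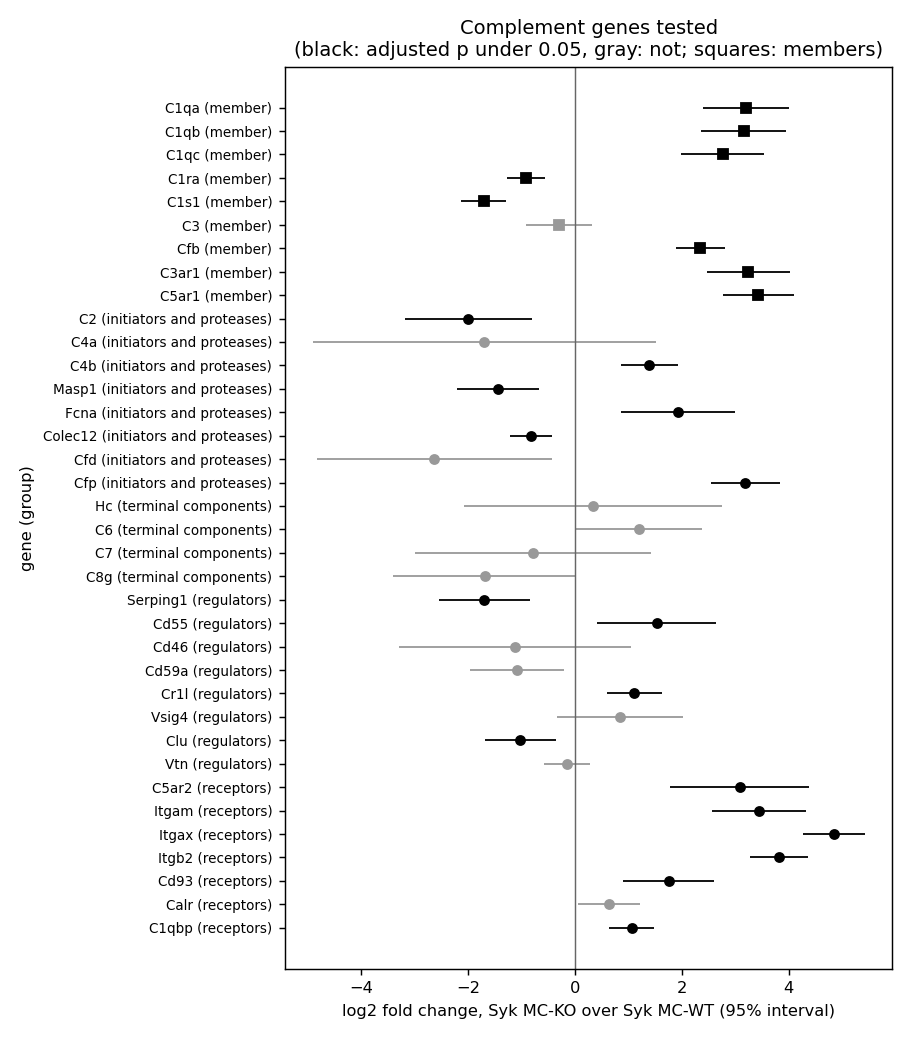
Log2 fold change between genotypes with its 95% interval for the 9 genes (squares) and the other complement genes tested (circles, 1 of the 28 not drawn), in black where the edgeR adjusted p was under 0.05 and gray where it was not. The 7 receptors of the longer list lie to the right of zero, while initiators and regulators lie on both sides.

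The genes with the most similar profiles were taken as those with the smallest Euclidean distance of centred log2 CPM over the 4 libraries, among 10033 genes with an average of at least 10 CPM. Nearest to the mean of the C1q chains were *Parvg* (distance 0.023), *Irf5* (0.047), *Cysltr1* (0.052), *Cd48* (0.069) and *Oas3* (0.094), with log2 fold changes between 3.01 and 3.11. *Irf5* encodes an interferon regulatory factor of myeloid cells and *Cysltr1* a leukotriene receptor. Nearest to the mean of *C1ra* and *C1s1* were *Frmd6* (0.042), *Smpd4* (0.060), *Zfp523* (0.063), *Six5* (0.063) and *Pcdhga11* (0.066). With 4 libraries in 2 groups, many genes share such a profile.

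**Figure D4:**
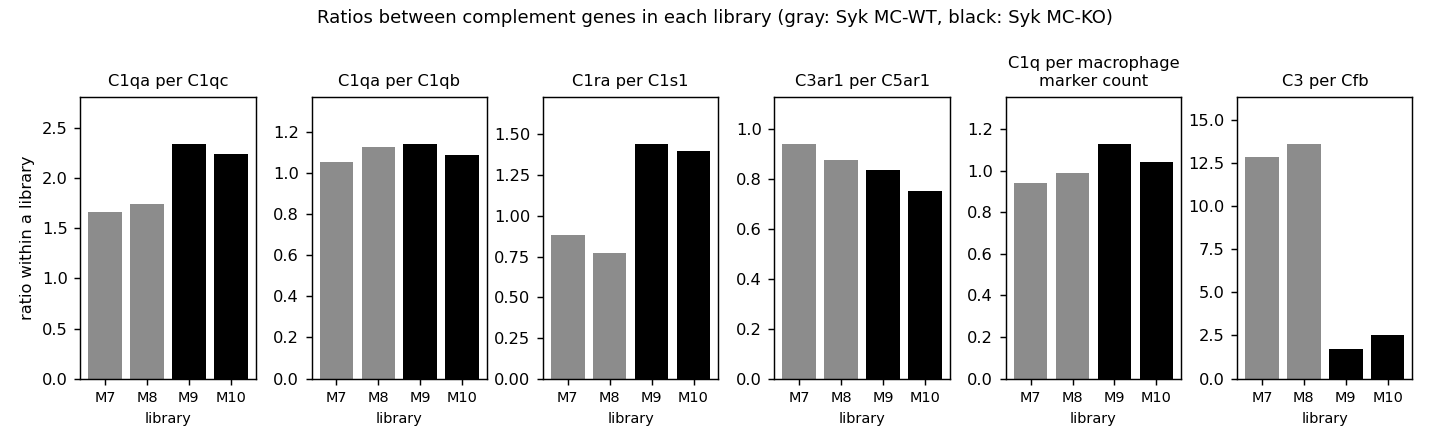
Ratios within each library, in gray for Syk MC-WT (M7, M8) and black for Syk MC-KO (M9, M10), per exon length except for C1q counts per macrophage marker count. *C1ra* per *C1s1* is below 1 in Syk MC-WT and above 1 in Syk MC-KO, *C3* per *Cfb* is lower in Syk MC-KO, and *C1qa* per *C1qb* overlaps between groups.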

How the data were processed

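The deposited table holds raw counts per Ensembl gene, which the authors made by aligning reads to mm10 with STAR 2.6.1d and quantifying them with Salmon 1.4.0, versions as in the submitters' processing notes. The labels give paired NovaSeq reads and 2 libraries a group, whereas the methods of the study describe single reads in triplicate. Genes were filtered with filterByExpr, normalized by TMM and tested with the quasi-likelihood test of edgeR 4.0.16 (R 4.3.3) over 16451 genes with Benjamini-Hochberg adjustment at 0.05. The method was tested on simulated data. Coordinates and exon lengths came from the GRCm38 annotation, which matched 54409 of 54532 genes. Salmon shares ambiguous reads between similar genes, so *C4a* and *C4b*, and the paralogs of *C1ra* and *C1s1*, are uncertain.

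Alternatives were DESeq2 1.42.0, other scalings and filters, and leaving out each library. The genes, the pathway list and the marker lists were chosen with earlier results of these data known, although the rule for the 9 genes is a list of symbols and uses no value. The genes named were the 9 genes, any of the 41 pathway genes, *Syk* and *Lyz2*, the marker lists, and the 5 nearest profiles to the C1q chains and to *C1ra* with *C1s1*. *Gm16567* and *Gm20547* were added after their values were seen, since they overlap *C1s1* and *Cfb*. Values of some listed genes are not reported here.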

Additional observations from a re-analysis of the deposited data

How the results depend on the processing

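The direction of the 9 genes held with DESeq2 and its size factors, both filters, removal of mitochondrial and rRNA genes (*CT010467.1* was added after seeing the data) and every left-out library, and turned only when libraries were scaled to marker genes. The median log2 fold change of all genes was -0.52 by library size alone, -2.75 scaled to macrophage markers, -3.60 to pan-leukocyte genes, 1.10 to fibroblast markers and -0.16 with no filter. Of the 9 genes, 0 were higher with macrophage or pan-leukocyte scaling, and the number lower was 5 with pan-leukocyte and 0 with fibroblast scaling. Of the 28 pathway genes tested, library size alone gave 7 higher and 9 lower, macrophage scaling 2 and 20, and pan-leukocyte scaling 1 and 23. Fibroblast scaling gave 0 lower, and no filter, with 40 tested, gave 8 lower. Over all 16451 genes tested, library size alone gave 1677 higher and 5411 lower, macrophage scaling 140 and 14321, and pan-leukocyte scaling 55 and 15270. Over all genes, fibroblast scaling gave 8990 higher and 507 lower, and no filter 3376 lower of 26596. Leaving out 1 library gave 6 higher each time and 1 to 3 lower among the 9 genes, and 7 to 15 higher and 1 to 9 lower among the pathway genes. The lowest counts came without M8 (1 and 1 lower, 7 higher), while without M7 the pathway had 3 lower and without M9 or M10 it had 9. With pan-leukocyte scaling, log2 fold changes turned to -0.45 for *C1qa*, -0.49 for *C1qb*, -0.89 for *C1qc*, -1.28 for *Cfb*, -0.41 for *C3ar1*, -0.22 for *C5ar1*, -2.26 for *C4b*, -1.77 for *Fcna*, -0.46 for *Cfp*, -2.02 for *Cd55*, -2.54 for *Cr1l*, -0.61 for *C5ar2*, -0.25 for *Itgam*, -1.94 for *Cd93*, -2.99 for *Calr*, -2.53 for *C1qbp* and -0.83 for *Syk*. With macrophage scaling they turned to -0.019 for *C1qc*, -0.43 for *Cfb*, -1.40 for *C4b*, -0.91 for *Fcna*, -1.14 for *Cd55*, -1.69 for *Cr1l*, -1.08 for *Cd93*, -2.13 for *Calr* and -1.67 for *C1qbp*. With fibroblast scaling they turned to 0.16 for *C1ra*, 0.75 for *C3*, 0.26 for *Colec12* and 0.016 for *Clu*. Scaling to a marker list moves every gene by nearly the same amount, and the cause of the other changes was not tested. *C3* passed the test by library size alone (-0.85, adjusted p = 0.0310). By library size alone *Fcna*, *Cd55*, *Cr1l* and *C1qbp* no longer passed (adjusted p = 0.0545, 0.127, 0.108 and 0.0631). A library left alone in its group was assumed to vary like the other group. With a library left out, the numbers of all genes called higher and lower moved as well. Both were smallest without M8, and both were larger without M9 or M10 than with every library kept. The changes in the complement counts with a library left out thus cannot be read as particular to these genes.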
